A study of Mus musculus with 36 samples.

Results

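Disease-associated microglia genes are genes that brain macrophages switch on around amyloid plaques and other lesions. A list of 33 of them was looked up by symbol in a table of 50559 genes of the mouse hippocampus, and 33 of 33 were found. They were followed through 36 bulk RNA sequencing libraries of female mice aged 6 months, in 8 groups of genotype by training. The genotypes were WT, APP (heterozygous for human APP with the Swedish and Indiana mutations, J9 line), Tau (heterozygous for human tau P301S, PS19 line) and APP/Tau, which carries both transgenes. All groups, WT included, also carried PV_Cre and RiboTag+/-, alleles that tag ribosomes in parvalbumin neurons, and the libraries are the input fraction taken before any ribosome was pulled down. All mice were handled on 3 days. Trained mice then learned the Morris water maze, a spatial memory task, over 5 days with 6 trials per day, had a probe trial 24 hours later, and gave tissue 2 hours after it. Naive mice were handled only. There were 6 libraries of naive WT, 5 of naive APP, 4 of naive Tau, 6 of naive APP/Tau, 5 of trained WT, 3 of trained APP, 4 of trained Tau and 3 of trained APP/Tau. The APP transgene is driven by the PDGF-B promoter, active mainly in neurons, and the tau transgene by the mouse prion promoter, active in neurons and in other cells.

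In the healthy brain, microglia hold a homeostatic state marked by genes such as P2ry12, Tmem119 and Cx3cr1. Where they meet amyloid, dying neurons or lipid debris, the lipid receptor TREM2 signals through its adaptor TYROBP, and in mice the cells take on the disease-associated state. They then express the receptor Clec7a, the integrin Itgax, lysosomal genes, chemokines and genes of lipid handling.

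Promoters are shown for the 4 members that passed the test in at least 1 comparison and have an entry in the promoter table, so that their start regions can be read beside their levels. The windows run from 250 bases before to 50 after the start, 5′ to 3′ on the gene's strand, from RefSeq on GRCm38.p6. The counts were made on another build. Capitals mark a motif. 4 motifs were searched on both strands, and none is contained in another. GAGGAAG, a core read by the myeloid factor PU.1, is in 13.5% of all 27025 promoters of this length. TGANTCA, the AP-1 site, is in 7.93%. CACGTG, the E-box of the MITF and TFE3 family, is in 7.24%, and an interferon response core is in 3.49%. Cst7 lies at chr2:150570165-150570464 on the + strand with AP-1 letters from base 245 of the window. Clec7a lies at chr6:129472730-129473029 on the - strand and holds no searched motif in this window, the first of 2 that the table lists. Itgax lies at chr7:128129300-128129599 on the + strand with AP-1 letters from base 195. Mmp12 lies at chr9:7344147-7344446 on the + strand with the PU.1 letters of the other strand from base 164, also in the first of 2 windows.
Cst7: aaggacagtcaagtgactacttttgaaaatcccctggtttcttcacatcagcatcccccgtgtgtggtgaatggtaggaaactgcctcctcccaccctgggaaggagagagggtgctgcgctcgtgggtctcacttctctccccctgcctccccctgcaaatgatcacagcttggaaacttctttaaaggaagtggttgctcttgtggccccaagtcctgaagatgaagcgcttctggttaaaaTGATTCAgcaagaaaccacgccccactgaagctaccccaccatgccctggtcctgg
Clec7a: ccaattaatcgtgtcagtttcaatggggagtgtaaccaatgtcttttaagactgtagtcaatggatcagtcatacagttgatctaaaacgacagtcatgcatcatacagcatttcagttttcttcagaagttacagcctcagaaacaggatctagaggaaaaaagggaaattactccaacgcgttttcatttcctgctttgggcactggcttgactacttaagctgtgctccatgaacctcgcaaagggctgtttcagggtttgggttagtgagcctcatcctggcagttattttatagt
Itgax: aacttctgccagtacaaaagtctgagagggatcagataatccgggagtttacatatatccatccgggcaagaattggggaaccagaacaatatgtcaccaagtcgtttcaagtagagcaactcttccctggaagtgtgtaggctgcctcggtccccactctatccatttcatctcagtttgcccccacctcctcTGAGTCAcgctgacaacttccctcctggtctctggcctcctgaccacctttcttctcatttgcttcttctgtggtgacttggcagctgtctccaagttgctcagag
Mmp12: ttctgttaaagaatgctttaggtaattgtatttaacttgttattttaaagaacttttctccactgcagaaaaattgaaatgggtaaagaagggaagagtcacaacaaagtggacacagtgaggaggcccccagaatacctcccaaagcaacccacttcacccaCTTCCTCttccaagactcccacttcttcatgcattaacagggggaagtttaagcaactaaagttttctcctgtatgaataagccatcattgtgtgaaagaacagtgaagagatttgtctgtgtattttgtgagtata
Of the 33 members, 25 matched a promoter. AP-1 letters were in 7 of them (Cst7, Gpnmb, Itgax, Igf1, Cd68, Trem2 and Cybb), PU.1 letters in 6 (Ctss, Spp1, Axl, Mmp12, Igf1 and Trem2), the interferon letters in 3 (Ctss, Spp1 and Cybb) and the E-box in 1 (Hif1a). A match describes letters and not a bound site.

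The libraries held 69.2 to 124.8 M counts (M for mega, median 85.4), and several members of low level rest on few of them. Levels are in CPM, counts per M of the library total after TMM scaling. Homeostatic microglia markers were present in every library: the summed level of 15 of them was 337 to 672 CPM. Prnp, the gene whose mouse promoter drives the PS19 transgene, stood at 1423 to 2142 CPM in 16 of the 17 libraries labelled Tau or APP/Tau. It stood at 728 to 879 CPM in the 19 others. The library labelled Tau trained replicate 4 had 846 CPM of Prnp, within the range of the libraries without the Tau label, and was kept under its label. Pvalb, the parvalbumin gene, was at 2.59 to 3.28 CPM in 5 libraries (WT naive replicate 3, APP/Tau naive replicates 1 and 6, the library labelled Tau trained replicate 4, and APP/Tau trained replicate 1) and at 10.7 to 20.7 CPM in the others. The labels give each sample a number but do not say whether each is a separate mouse. A p-value here sets a difference between groups against the spread of samples within groups, estimated over all 8 groups together. It covers no more than that spread, part of which may be technical.

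Many of the members were high in 5 of the 17 libraries labelled with the Tau transgene. In 2 more, APP/Tau naive replicate 2 and Tau trained replicate 1, some members were above all libraries without the label, and Fabp5, Igf1, Hif1a and Lpl did not follow this pattern. When the mean of the 4 Tau-labelled groups was set against the mean of the 4 other groups, 6 of 33 members passed an adjusted p of 0.05 over all genes, and all 6 were higher: Cst7, Clec7a, Itgax, Mmp12, Ccl4 and Cd52. Over all 25382 genes tested, 0.725% passed in this direction and 0.835% in either. Mmp12 and Ccl4 entered the test through the Tau-labelled libraries, with 0 and 2 libraries without the label past the filter's 0.117 CPM. Their direction was fixed by the filter, so these 2 of the 6 add no support to this count or to those that follow. The log2 changes of the 6 ran from 1.91 to 4.08 in the edgeR quasi-likelihood test with Benjamini-Hochberg adjustment. More members had an unadjusted p under 0.05, 25 of 33 in all and each higher, against 7.29% of all genes. The members and lists were chosen with earlier results of these data known, so such counts, here and below, are no independent support. In this comparison 31 of 33 members were above 0, against 47.0% of all genes, with a median log2 change of 0.65 over the members and -0.0075 over all genes. The call of 6 rested on few libraries: 0 members passed without Tau naive replicate 2, without Tau trained replicate 3 or without APP/Tau trained replicate 1. It was 2 without APP trained replicate 1 and 3 without Tau trained replicate 1, and it was 10 without APP/Tau trained replicate 2 and 11 without APP/Tau naive replicate 3. It was also 0 with limma-voom and its quality weights, 11 with a trended dispersion and 18 with DESeq2. Without the library labelled Tau trained replicate 4, 7 passed. A change in bulk tissue may come from more cells of a type or from more RNA per cell, and these cannot be told apart here.

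**Figure D1:**
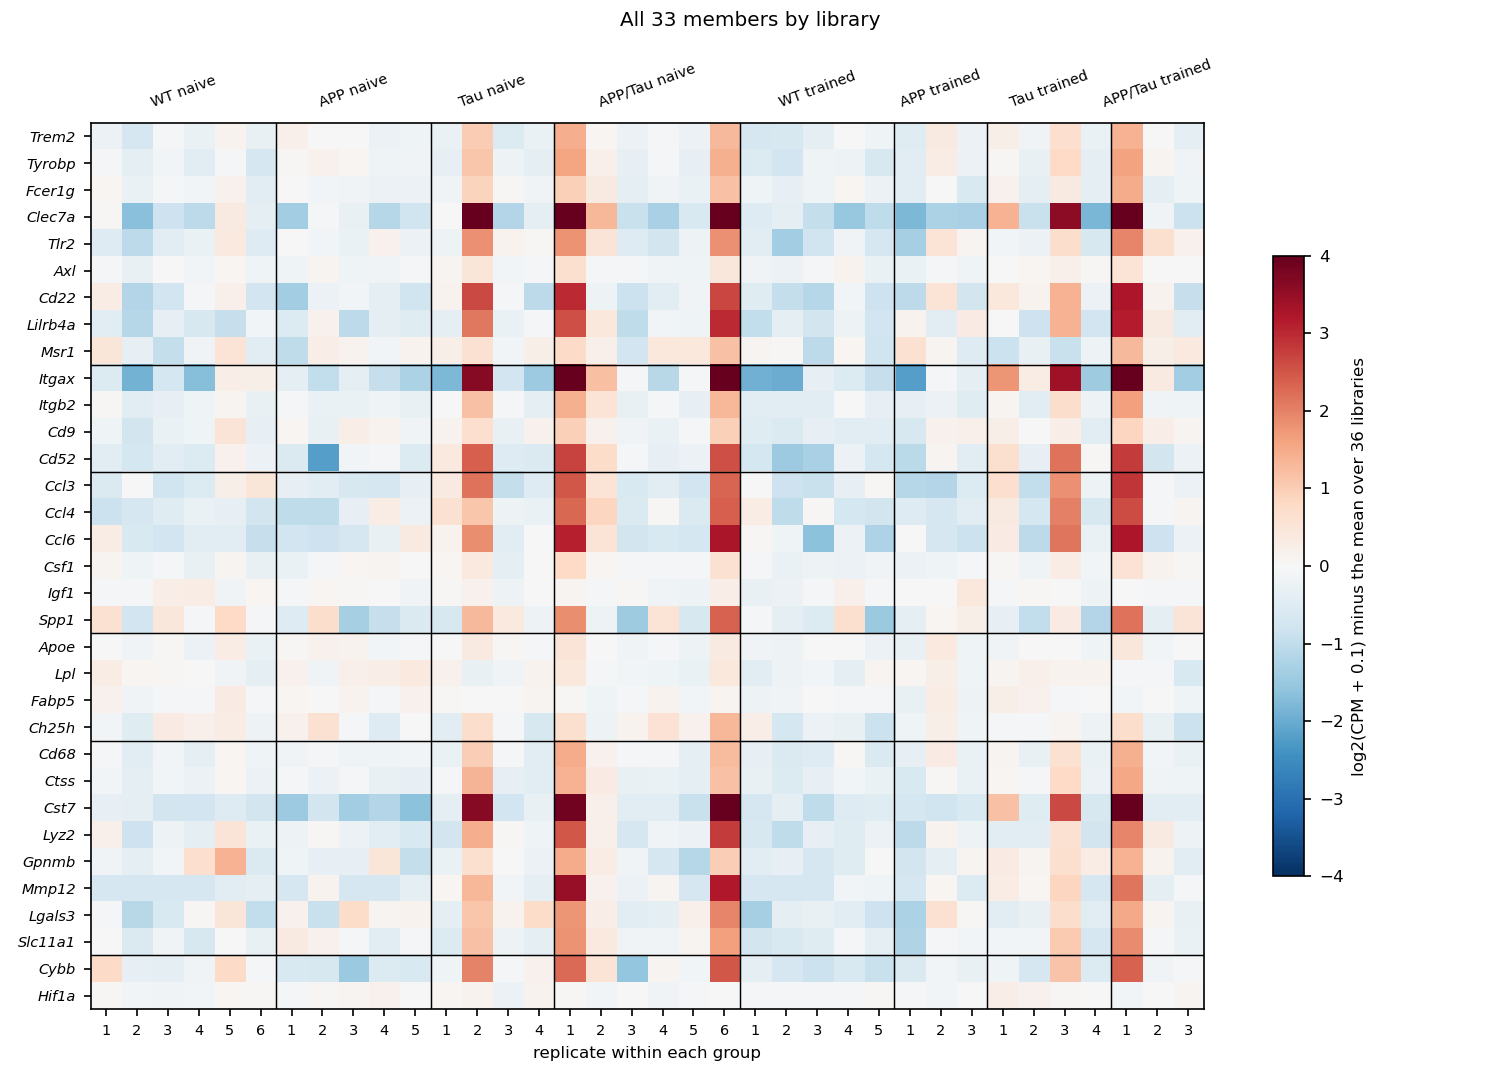
Each row is a member, grouped by role, and each column a library; colour is log2(CPM + 0.1) minus the mean over the 36 libraries, cut at 4 in either direction. Tau naive replicate 2, APP/Tau naive replicates 1 and 6, Tau trained replicate 3 and APP/Tau trained replicate 1 stand out in red over most rows.

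Among the 9 receptors and adaptors, 1 passed in Tau-labelled against other groups, higher, where 0.725% of all genes did. An unadjusted p under 0.05 was reached by 8, all higher, against 7.29% of all genes. The median log2 change of the 9 was 0.65. Clec7a, which encodes dectin-1, a receptor for fungal glucans that signals through SYK, was the one that passed, with a log2 change of 3.96 (SE 0.883, adjusted p = 0.0281 by edgeR). In naive WT its level was 0.077 to 0.623 CPM with a median of 0.276, and in naive APP 0.115, 0.432, 0.36, 0.157 and 0.223 CPM. The naive Tau libraries had 0.452, 8.79, 0.147 and 0.34 CPM. Replicate 2 was thus far above the others of its group, which lay inside the WT range. The 6 naive APP/Tau libraries ran from 0.129 to 14.3 CPM with a median of 0.792, and replicates 1, 2 and 6 had 12.4, 1.31 and 14.3 CPM while the others did not exceed WT. Trained WT had 0.29, 0.327, 0.191, 0.0949 and 0.175 CPM, and trained APP 0.063, 0.134 and 0.13. Trained Tau had 1.39, 0.204, 6.55 and 0.059 CPM, and trained APP/Tau 13.8, 0.41 and 0.21. In both trained groups high and WT-like libraries stood side by side, and 7 of 17 Tau-labelled libraries exceeded every one of the 19 others.

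Cd22, an inhibitory lectin that binds sialic acid, ran from 0.0287 to 0.401 CPM (median 0.105) in the 19 libraries without the Tau label. In those with it, it ran from 0.0658 to 3.12 CPM (median 0.272), with 2.03 in Tau naive replicate 2, 2.57 and 2.09 in APP/Tau naive replicates 1 and 6, 0.782 in Tau trained replicate 3 and 3.12 in APP/Tau trained replicate 1. These 5 libraries were above all 19 others, and no other library was. Lilrb4a, an inhibitory receptor of myeloid cells, had 1.71, 2.39, 3.17, 0.987 and 3.58 CPM in the same 5 libraries in that order, against 0.0899 to 0.421 in the 19. Its close copy Lilrb4b, listed under the symbol Lilr4b, was at 0 to 0.103 CPM in the 19 and reached 0.484, and reads may be shared between the pair. Tyrobp, the signalling adaptor of TREM2, had 13.5, 18.7, 16.9, 10.7 and 19.3 CPM in the 5 libraries and 3.61 to 7.61 in the 19, so that they too did not overlap. Axl, a receptor that takes up cells displaying phosphatidylserine, had 65.3, 73.1, 64.1, 54.1 and 67.6 CPM in them and 38.0 to 51.1 in the 19. Its log2 change was 0.25 (SE 0.0724), the smallest of the 9, with an adjusted p of 0.0923 by edgeR. Trem2, the lipid receptor itself, ran from 5.50 to 11.3 CPM in the 19 and from 5.98 to 24.5 in the Tau-labelled libraries, 5 of them above the 19. Fcer1g, an adaptor of activating Fc receptors, reached 11.8 CPM against at most 4.63 in the 19, and Tlr2, a receptor for bacterial lipoproteins, 5.76 against at most 2.11. Msr1, a scavenger receptor, differed least in this respect, with 3 Tau-labelled libraries above the 19 and an unadjusted p of 0.179.

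Of the 4 integrins and surface proteins, 2 passed, against 0.725% of all genes higher. Each of the 4 had an unadjusted p under 0.05, higher, against 7.29% of all genes. Itgax, the CD11c integrin chain used as a marker of these cells, had a log2 change of 3.56 (SE 0.801, adjusted p = 0.0285 by edgeR). Its level was 0.103 to 0.793 CPM in naive WT with a median of 0.387, and 0.474, 0.279, 0.473, 0.295 and 0.212 in naive APP. Naive Tau had 0.116, 9.29, 0.343 and 0.176 CPM. Naive APP/Tau ran from 0.248 to 24.0 CPM with a median of 1.11, of which replicates 1, 2 and 6 had 24.0, 1.60 and 16.3. In the other 3 it was at most 0.623, again within the WT range. Trained WT had 0.0967, 0.0879, 0.49, 0.415 and 0.299 CPM and trained APP 0.063, 0.615 and 0.47. Trained Tau had 2.47, 0.817, 7.82 and 0.177 CPM, and trained APP/Tau 16.9, 0.869 and 0.184. That put 9 of 17 Tau-labelled libraries above all 19 others, the most of any member. Cd52, a small glycoprotein anchored in the membrane of leukocytes, had a log2 change of 1.91 (SE 0.452, adjusted p = 0.0338 by edgeR). It had 4.68 CPM in Tau naive replicate 2, 5.85 and 5.45 in APP/Tau naive replicates 1 and 6, 4.02 in Tau trained replicate 3 and 6.33 in APP/Tau trained replicate 1, against 0.102 to 0.944 in the 19. APP/Tau naive replicate 2 and Tau trained replicate 1 followed with 1.43 and 1.32 CPM, and Tau naive replicate 1 with 1.11. Itgb2, the CD18 chain that pairs with CD11c, had 11.9, 14.3, 13.4, 8.59 and 16.7 CPM in the 5 high libraries and 3.69 to 5.68 in the 19. The tetraspanin Cd9 ran from 25.5 to 60.3 CPM in the 19 and to 83.1 in the Tau-labelled libraries, and WT naive replicate 5 held the value of 60.3.

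**Figure D2:**
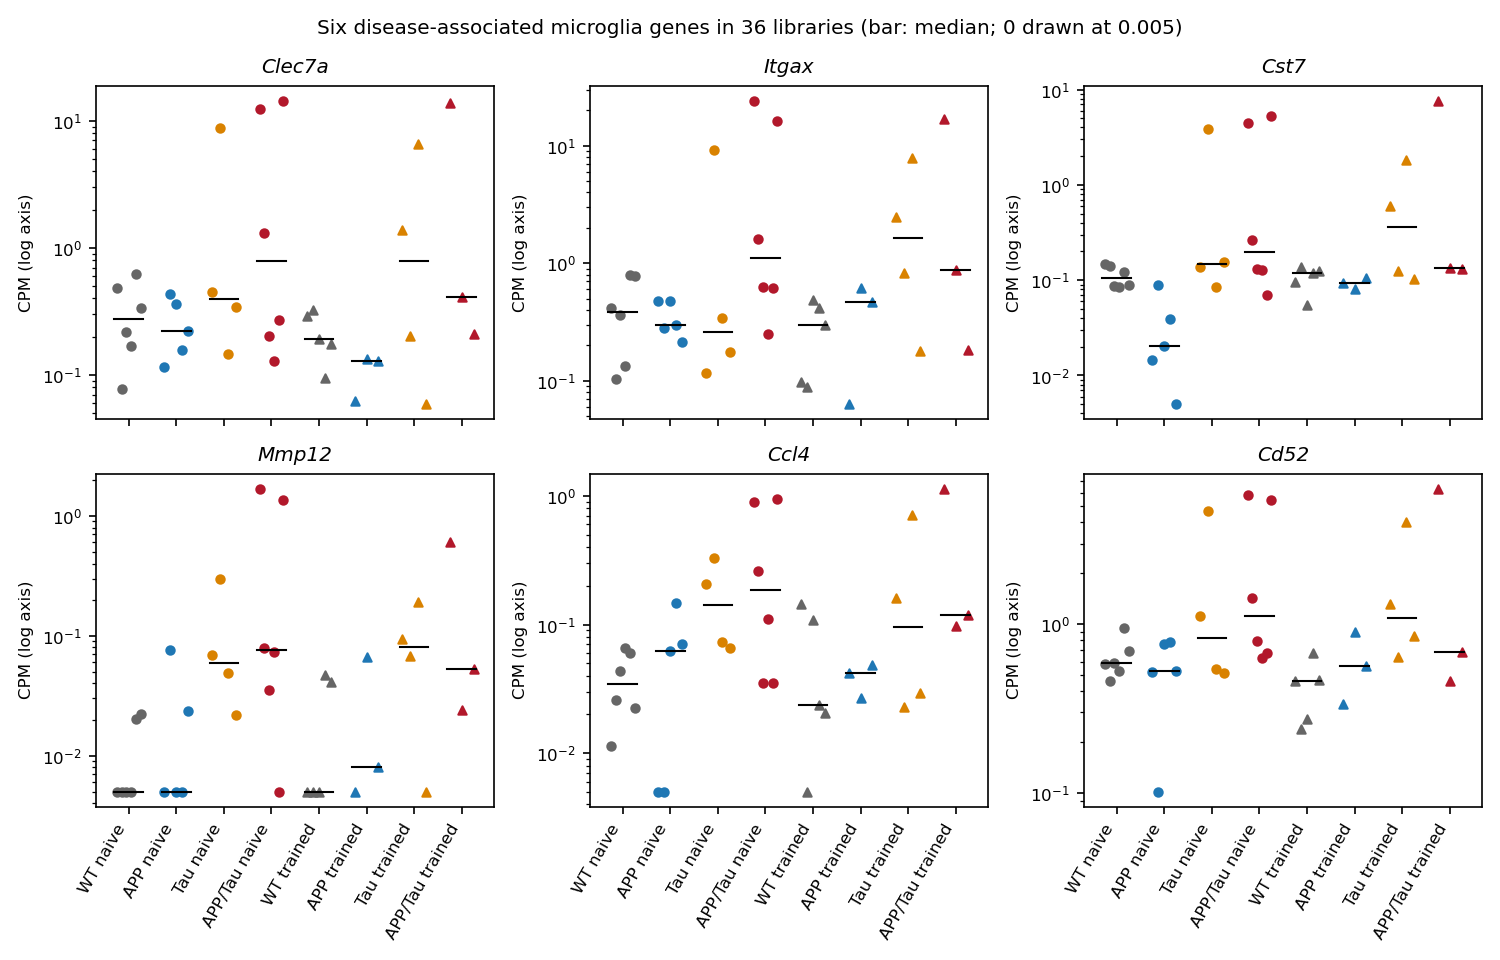
CPM on a log axis of the 6 members that passed in Tau-labelled against other groups, 1 point per library (circles naive, triangles trained) and a bar at each group's median; a value of 0 is drawn at 0.005. In each panel 1 to 3 libraries of each Tau-labelled group stand above all libraries without the label, for Clec7a between 1.31 and 14.3 CPM, while the rest lie among them.

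Among the 6 secreted ligands and growth factors 1 passed, against 0.725% of all genes higher. An unadjusted p under 0.05 was reached by 4, all higher, against 7.29% of all genes. Ccl4, a chemokine, had a log2 change of 2.50 (SE 0.543, adjusted p = 0.0172 by edgeR). It stood at 0.331 CPM in Tau naive replicate 2, 0.897 and 0.946 in APP/Tau naive replicates 1 and 6, 0.71 in Tau trained replicate 3 and 1.14 in APP/Tau trained replicate 1, against 0 to 0.148 CPM in the 19. The 19 values rest on at most 15 counts each, and only 2 of those libraries exceeded the filter's 0.117 CPM, so Ccl4 was tested because of the Tau-labelled libraries. Its neighbour in function, Ccl3, had 1.19, 1.51, 1.34, 0.914 and 2.00 CPM in the same 5 libraries against 0.0267 to 0.3 in the 19, with an adjusted p of 0.0517 by edgeR. Ccl6, a chemokine of rodents, had 4.41, 10.7, 11.8, 5.35 and 11.5 CPM against 0.3 to 1.51. Its adjusted p was 0.0722 by edgeR, and Ccl9, a related chemokine of the same gene cluster, had a log2 change of 0.97 with an adjusted p of 0.159. Csf1, the growth factor of microglia, and Spp1, the secreted phosphoprotein osteopontin, reached 50.6 and 35.8 CPM at most, in APP/Tau naive replicate 1 and replicate 6, against at most 31.9 and 12.0 in the 19. Igf1, a trophic factor, did not follow: it ran from 7.82 to 13 CPM in the 19 and from 8.24 to 11.6 in the Tau-labelled libraries, with a log2 change of -0.048 (SE 0.0568).

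Of the 8 genes of lysosome, protease and phagocytosis, 2 passed, Cst7 and Mmp12, against 0.725% of all genes higher. The direction of Mmp12 was fixed by the filter. All 8 had an unadjusted p under 0.05, higher, against 7.29% of all genes. Cst7, which encodes cystatin F, an inhibitor of lysosomal cathepsins, had the largest log2 change of the 33, 4.08 (SE 0.854, adjusted p = 0.0158 by edgeR). Its level was 0.0849 to 0.149 CPM in naive WT with a median of 0.105, and 0.0144, 0.0889, 0.0206, 0.0393 and 0 in naive APP. Naive Tau had 0.139, 3.84, 0.0857 and 0.154 CPM. Naive APP/Tau ran from 0.0701 to 5.29 CPM with a median of 0.197, with 4.44 and 5.29 in replicates 1 and 6 and 0.263 in replicate 2. Replicate 2 stood above the WT range, and the other 3 were inside or under it. Trained WT had 0.0967, 0.138, 0.0545, 0.119 and 0.124 CPM and trained APP 0.0944, 0.0802 and 0.105. Trained Tau had 0.603, 0.125, 1.84 and 0.103 CPM and trained APP/Tau 7.56, 0.133 and 0.131. The highest Tau-labelled value rested on 624 counts, and the highest of the 19 on 13.

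Mmp12, the macrophage metalloelastase, was listed at 0 in most libraries without the Tau label and at no more than 6 counts (0.0762 CPM) in any of them. In naive mice the summed count was 4 over 6 WT libraries, 8 over 5 APP, 38 over 4 Tau and 291 over 6 APP/Tau. APP/Tau naive replicates 1 and 6 held 1.68 and 1.36 CPM, and the other 4 had 0.0789, 0.0351, 0.0736 and 0 CPM. Tau naive had 0.0695, 0.297, 0.049 and 0.0219 CPM, trained Tau 0.0943, 0.0681, 0.193 and 0, and trained APP/Tau 0.605, 0.0241 and 0.0525. None of the 19 exceeded the filter's 0.117 CPM, so Mmp12 also was tested through the Tau-labelled libraries alone and had to differ to be tested. Its log2 change was 3.50 (SE 0.867, adjusted p = 0.0328 by edgeR) in Tau-labelled against other groups. Lyz2, the lysozyme of macrophages, had 21.5, 43.9, 53.7, 11.8 and 30.4 CPM in Tau naive replicate 2, APP/Tau naive replicates 1 and 6, Tau trained replicate 3 and APP/Tau trained replicate 1, against 3.72 to 11.1 in the 19, with Lyz1, a copy that could take its reads, at most at 0.173. Slc11a1, a metal transporter of phagosomes, had 6.00, 9.47, 8.35, 5.55 and 9.98 CPM against 1.08 to 3.40, and Lgals3, the sugar-binding galectin-3, 2.18, 3.44, 4.01, 1.61 and 2.89 against 0.314 to 1.65. For Lgals3 the value of Tau trained replicate 3 lay inside the range of the 19. Cd68, a protein of the lysosomal membrane, reached 18.3 CPM against at most 8.09, and the protease Ctss 145 against at most 52.6. Gpnmb, a glycoprotein of late lysosomes, did not separate the libraries in this way, since WT naive replicate 5 had 16.4 CPM, close to the 17.5 of APP/Tau naive replicate 1 and the 16.5 of APP/Tau trained replicate 1.

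Of the 4 genes of lipid handling none passed and none had an unadjusted p under 0.05 in Tau-labelled against other groups. Apoe, the main lipid carrier of the brain and made chiefly by astrocytes, ran from 1179 to 1894 CPM in the 19 and from 1263 to 2056 in the Tau-labelled libraries, with a log2 change of 0.090 (SE 0.0715). Lpl, a lipase that other hippocampal cells also express, had a log2 change of -0.017 (SE 0.0759) and Fabp5, a fatty acid carrier, 0.017 (SE 0.0496). Ch25h, which makes 25-hydroxycholesterol, had 0.24 (SE 0.195). Of the remaining pair, Cybb, the catalytic chain of the phagocyte NADPH oxidase, had 3.54, 4.31, 5.04, 1.93 and 4.6 CPM in the 5 high libraries against 0.226 to 1.47 in the 19, with an adjusted p of 0.0915 by edgeR. Hif1a, the hypoxia factor present in most cell types, had a log2 change of 0.040 (SE 0.0340).

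**Figure D3:**
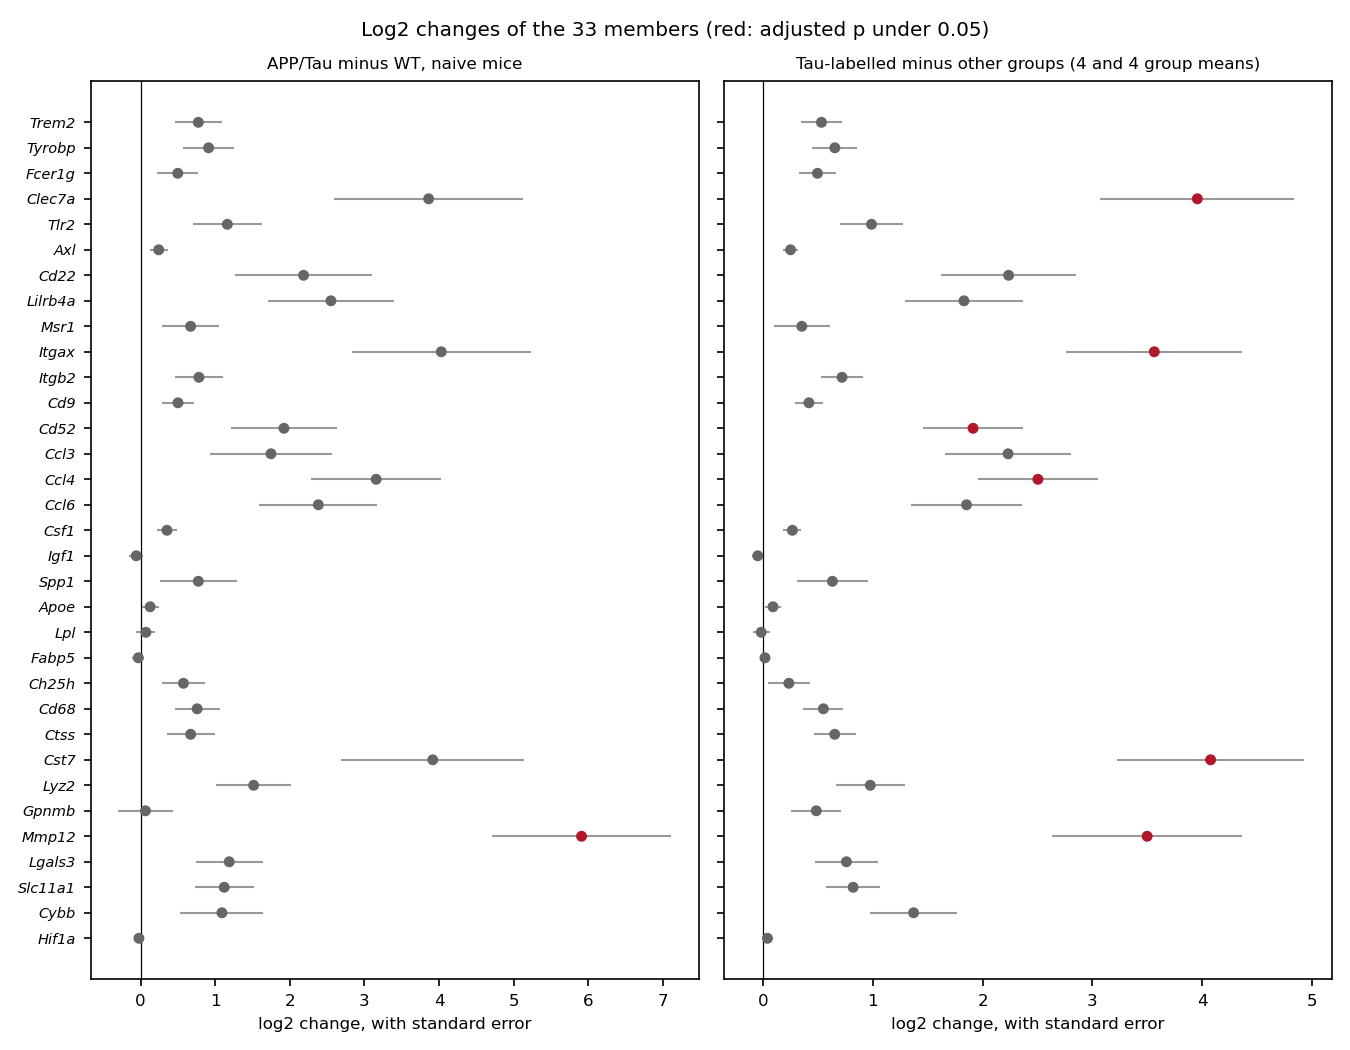
Log2 changes of the 33 members with their standard errors in naive APP/Tau minus naive WT and in the 4 Tau-labelled minus the 4 other group means; red marks an adjusted p under 0.05. Members with the largest changes, such as Cst7 at 4.08 and Clec7a at 3.96 on the right, also have the widest errors.

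In naive APP/Tau against WT, Mmp12 passed, with a log2 change of 5.91 (SE 1.20, adjusted p = 0.0162 by edgeR), 1 of 33 members against 0.0276% of all genes higher and 0.067% in either direction. Mmp12 was tested through libraries in which it was high, so this call is a description and does not set APP/Tau apart from the other genotypes. The size of its change depends on the prior count, since WT had 4 counts. Without APP/Tau naive replicate 1 or 6 it did not pass, and the same held without WT naive replicate 3, 4, 5 or 6, without APP naive replicate 2, with a trended dispersion, with limma-voom and with only the 2 groups fitted. An unadjusted p under 0.05 was reached by 21 members, all higher, against 3.82% of all genes, and 30 of 33 were above 0 against 50.4%. The median log2 change of the members was 0.78, and 0.0013 over all genes. Without replicate 1 the 21 became 9, and without replicate 6 they became 8, with medians of 0.59 and 0.57. No member had all 6 APP/Tau libraries above all 6 WT libraries, against 0.169% of all genes. Clec7a had a log2 change of 3.86 (SE 1.27, adjusted p = 0.611 by edgeR) and Itgax 4.03 (SE 1.20, adjusted p = 0.587).

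Naive Tau against WT gave 0 of 33 members, and 0.0276% of all genes passed. The smallest adjusted p was that of Cst7, 0.511 by edgeR, at a log2 change of 3.25 (SE 1.47). An unadjusted p under 0.05 was found for 2 members, Cst7 and Tlr2, against 4.87% of all genes higher. The median of the members was 0.48, and without Tau naive replicate 2 it was 0.01 with 19 of 33 above 0, where all 4 libraries had given 29, against 49.8% of all genes. Naive APP against WT gave 0 members at the adjusted threshold, against 0.0355% of all genes, and 0 at an unadjusted p under 0.05, against 3.68%. All 8 groups shared 1 estimate of each gene's spread, so the high Tau-labelled libraries also enter these errors. Clec7a had a log2 change of -0.31 (SE 2.34) and Cst7 of -1.73 (SE 3.25). For such members a count of 0 does not show that nothing changed. The members' median was 0.012. Cybb was the exception in order: all 5 naive APP libraries, at 0.503, 0.482, 0.226, 0.531 and 0.506 CPM, were below all 6 WT libraries, which ran from 0.613 to 1.47 with a median of 0.757. Of all genes 0.173% were below in this way, and the log2 change of Cybb, -1.10 (SE 0.800), had an unadjusted p of 0.180.

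In trained mice no member passed against WT in any genotype, in comparisons where 0.0276% (APP), 0.303% (Tau) and 0.0552% (APP/Tau) of all genes passed. APP/Tau had the largest members' median, 1.34, with 25 members at an unadjusted p under 0.05, all higher, against 6.82% of all genes, and 31 of 33 above 0 against 48.0%. The smallest adjusted p was 0.237 by edgeR, for Cst7 at 4.6 (SE 1.41) and for Cd9 at 0.90 (SE 0.272). The count rested on replicate 1: without it 1 member had an unadjusted p under 0.05 and the median was 0.30. It was 18 with the replicate block and 5 with limma-voom. All 3 APP/Tau libraries were nevertheless above all 5 WT libraries for 7 members, Tyrobp, Tlr2, Msr1, Cd9, Csf1, Lyz2 and Cybb, against 3.99% of all genes. For Cd9 the 3 libraries had 76.7, 51.4 and 45.8 CPM and the 5 WT libraries 30.1, 28.3, 33.6, 32.1 and 31.6. For Csf1 they had 43.9, 32.1 and 30.2 CPM against 27.5, 24.5, 25.6, 24.9 and 26.6. Replicates 2 and 3 of this group therefore exceeded trained WT for these members, while for Clec7a, Cst7 and Itgax at least 1 of them did not. Choroid plexus markers summed over 12 markers to 2523 and 2336 CPM in replicates 2 and 3, above the 90.5 to 1090 of trained WT, and to 127 CPM in replicate 1, inside that range. Border macrophage markers summed to 13.4 to 21.6 CPM over 10 markers in the 3 libraries against 6.51 to 11.1. Beyond an alternative fit with a choroid plexus score as covariate, the part of both marker sets in the result was not tested.

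Trained Tau against WT had 3 members with an unadjusted p under 0.05, all higher, against 6.64% of all genes: Hif1a at 0.16 (SE 0.0662), Lpl at 0.34 (SE 0.147) and Cd52 at 1.99 (SE 0.963). The members' median was 0.52, and 0.28 without Tau trained replicate 3. Gpnmb was above all WT libraries in all 4 libraries labelled Tau, among them replicate 4, whose Prnp goes against its label. Its levels were 7.72, 6.67, 9.70 and 7.65 CPM against 4.46, 4.91, 3.89, 4.41 and 6.07. That was 1 of 33 members, close to the 2.95% of all genes that did so. Of the settings tried Gpnmb passed in the fit that held the groups compared and no others. Without the library labelled Tau trained replicate 4, 7 members had an unadjusted p under 0.05. Trained APP against WT had 0 such members, against 5.84% of all genes, and a median of 0.22. The spread shared by all groups limits this count too, with an SE of 3.77 for Clec7a.

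Comparisons of APP-labelled with other groups gave no called member, against 0.0985% of all genes. An unadjusted p under 0.05 was reached by 3 members, all higher, against 5.41%: Msr1 at 0.65 (SE 0.252), Cd9 at 0.28 (SE 0.130) and Tyrobp at 0.42 (SE 0.205). The median over members was 0.28. In this comparison 12 of 12 choroid plexus markers had an unadjusted p under 0.05, higher, with a median of 1.29. Beyond an alternative fit with a choroid plexus score as covariate, their part in the result was not tested. Whether APP and Tau together differed from the sum of both was tested directly. No member passed in naive mice, where 0.0% of all genes did, and none in trained mice, where 0.0118% did. The members' median was 0.37 and 0.55. An unadjusted p under 0.05 was found in naive mice for 0 members, against 7.13% of all genes, and in trained mice for Lpl alone, lower at -0.61 (SE 0.233), against 9.39%. The comparisons with WT share their WT libraries, and the values are given side by side for that reason.

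Water maze training was not followed by a called member in any genotype, and 0.0% of all genes passed in each of the 4 comparisons. The spread shared by all groups limits these tests as well, and in WT the SE of Clec7a was 2.48. At an unadjusted p under 0.05 there were 0 members in WT against 5.85% of all genes, 0 in APP against 5.24%, 0 in APP/Tau against 3.07% and 1 in Tau against 14.6%. The 1 was Msr1, whose log2 change was -1.29 (SE 0.576, adjusted p = 0.290 by edgeR). Msr1 had 0.278, 0.388, 0.196 and 0.274 CPM in naive Tau and 0.0754, 0.159, 0.0722 and 0.177 in trained Tau, and all these values rest on few counts. In the same comparison 12 of 12 choroid plexus markers had an unadjusted p under 0.05, all lower, with a median of -2.89, and summed to 101 to 618 CPM in trained against 1436 to 3931 in naive Tau. Of 10 border macrophage markers 5 did so, all lower, with a median of -0.97, and they summed to 4.59 to 7.52 CPM in trained against 10.4 to 17.4 in naive Tau. Beyond an alternative fit with a choroid plexus score as covariate, the part of both marker sets in the result for Msr1 was not tested. In WT 31 of 33 members were below 0 after training, with a median log2 change of -0.19, where 47.9% of all genes were above 0. Other cell types' markers were below 0 too: 12 of 12 of choroid plexus with a median of -0.82, 9 of 10 of border macrophages with a median of -0.50 (2 at an unadjusted p under 0.05), and 7 of 8 of reactive astrocytes with a median of -0.29. Beyond an alternative fit with a choroid plexus score as covariate, the part of these markers in the members' result was not tested. Gpnmb had the smallest p there, with a change of -0.72 (SE 0.409, adjusted p = 0.845 by edgeR), and WT naive replicate 5 held its value of 16.4 CPM. The medians after training were -0.063 in APP, -0.12 in Tau and 0.050 in APP/Tau. The interactions of genotype with training gave 0 called members in each genotype, and 0.0% of all genes. At an unadjusted p under 0.05 they gave Igf1 in APP, at 0.33, against 2.67% of all genes, none in Tau against 9.04% and none in APP/Tau against 4.14%.

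Libraries of the same group differed widely. The 5 highest values of 21 of the 33 members were in the same 5 libraries, as for 0.831% of all genes: Tau naive replicate 2, APP/Tau naive replicates 1 and 6, Tau trained replicate 3 and APP/Tau trained replicate 1. For the others the number of these libraries among the top 5 was 4 for Fcer1g, Msr1, Cd9, Spp1, Apoe, Ch25h and Lgals3, 3 for Gpnmb, 2 for Lpl, 1 for Igf1 and Hif1a, and 0 for Fabp5. The 5 libraries were picked as those in which most members had a top 5 value. The 21 of 33 therefore describe that choice, and the share of all genes beside them is not a test. Of these 5 libraries, 3 also had low Pvalb (APP/Tau naive replicates 1 and 6 and APP/Tau trained replicate 1), as did WT naive replicate 3 and the library labelled Tau trained replicate 4, in which the members were not high. Its part in the result was not tested. Counted by library, APP/Tau naive replicate 1 was above every library without the Tau label for 30 members, where 5.55% of all genes were. APP/Tau trained replicate 1 was so for 29 members against 8.65%, APP/Tau naive replicate 6 for 28 against 8.69%, Tau naive replicate 2 for 26 against 8.73% and Tau trained replicate 3 for 22 against 4.96%. Between these and the rest stood APP/Tau naive replicate 2 with 13 members and Tau trained replicate 1 with 10, against 4.57% and 5.80% of all genes. The other 10 Tau-labelled libraries had 0 to 4 members, against 2.41 to 7.42%. Among libraries without the label, WT naive replicate 5 was above the 18 others for 13 members, against 9.77% of all genes, and also had 1356 summed CPM of reactive astrocyte markers.

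**Figure D4:**
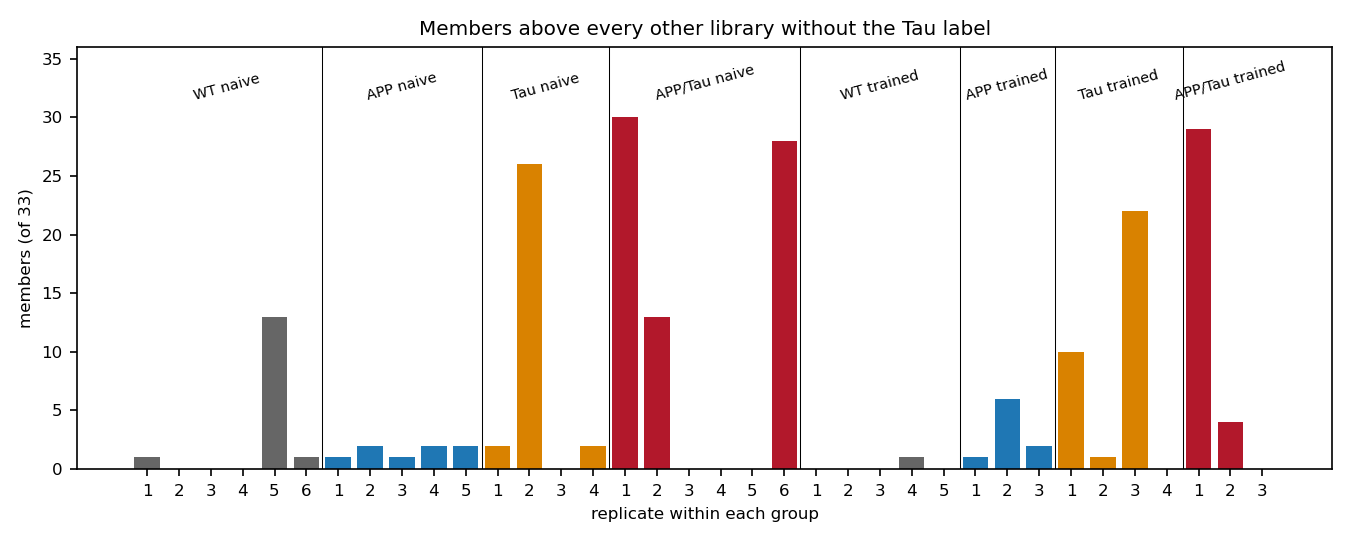
For each library, the bar gives the number of the 33 members whose CPM was above every other library without the Tau label. The 5 tallest bars, from 22 to 30 members, are 1 or 2 libraries in each Tau-labelled group, and WT naive replicate 5 and APP/Tau naive replicate 2 reach 13.

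Homeostatic markers were higher in the same libraries by a smaller factor. Their summed level was 650 CPM in Tau naive replicate 2, 672 and 603 in APP/Tau naive replicates 1 and 6, 509 in Tau trained replicate 3 and 644 in APP/Tau trained replicate 1, against 337 to 479 in the 19 libraries without the label. Set over that sum, Clec7a was 1.35, 1.84, 2.36, 1.29 and 2.14% of it in the 5 libraries and 0.0171 to 0.137% in the 19. Trem2 was 2.74, 3.64, 3.63, 2.75 and 3.66% against 1.47 to 2.42%. Of the 9 members for which this ratio was taken, 8 were above the 19 in each of the 5 libraries: Clec7a, Itgax, Cst7, Cd52, Trem2, Tyrobp, Ctss and Cd68. Apoe was not, with 283, 306, 308, 281 and 307% against 296 to 405%. The 9 were picked by hand, and Clec7a, Itgax, Cst7 and Cd52 among them had already passed. The 5 libraries were picked for their high member values, so the 8 of 9 is a description and not a test. No ratio was taken for the other members, among them Fabp5, Igf1, Hif1a, Lpl and Gpnmb. Of the 15 homeostatic markers 1 passed in Tau-labelled against other groups, Sall1, a transcription factor of microglia, at 0.23 (SE 0.0446, adjusted p = 0.0082 by edgeR). Of all genes 0.725% passed higher. The median of the 15 was 0.23, and 8 had an unadjusted p under 0.05, all higher, against 7.29% of all genes. P2ry12, Tmem119 and Cx3cr1 had -0.0086, -0.063 and 0.26.

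**Figure D5:**
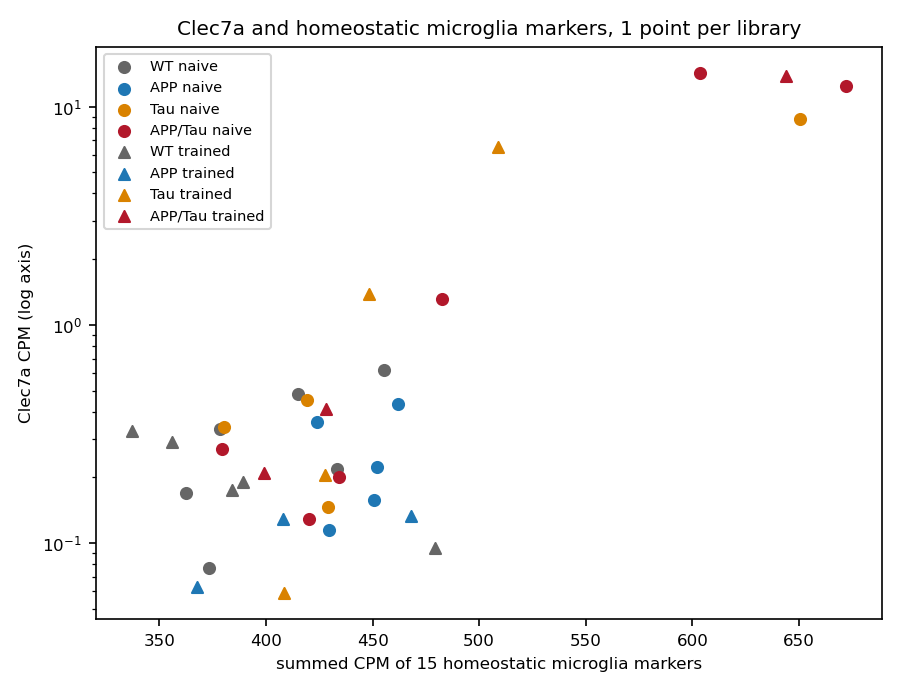
Clec7a CPM (log axis) against the summed CPM of 15 homeostatic microglia markers, 1 point per library. The 5 libraries at 6.55 to 14.3 CPM of Clec7a have homeostatic sums of 509 to 672 CPM, and all libraries without the Tau label lie at 0.0630 to 0.623 CPM of Clec7a.

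Other genes of the pathway followed in part. Of 11 genes of TREM2 and phagocyte signalling tested, none passed in Tau-labelled against other groups, where 0.725% of all genes passed higher. An unadjusted p under 0.05 was reached by 7, all higher, against 7.29% of all genes. The median of the 11 was 0.31. In naive APP/Tau against WT the smallest p in this list were those of Syk, the kinase behind TREM2 and dectin-1, at 0.31 (SE 0.127), and Inpp5d, a phosphatase that restrains it, at 0.39 (SE 0.169). Of 27 further disease-associated microglia genes 2 passed in Tau-labelled against other groups, against 0.725% of all genes higher. They were the monocyte chemokines Ccl2 at 1.98 (SE 0.436, adjusted p = 0.0175 by edgeR) and Ccl12 at 1.98 (SE 0.455, adjusted p = 0.0285). Whether either entered the test only through Tau-labelled libraries, like Mmp12 and Ccl4, was not examined. An unadjusted p under 0.05 was found for 14 of the 27, all higher, against 7.29% of all genes. None of the 8 reactive astrocyte markers passed, and 6 had an unadjusted p under 0.05, all higher, against 7.29% of all genes. They summed to 1348, 2067, 1538, 1000 and 1793 CPM in the 5 libraries with the highest member values, against 296 to 1356 in the 19, and their part in the members' result was not tested. Border macrophage markers gave 0 of 10 at an unadjusted p under 0.05, and summed to 4.59 to 21.6 CPM in Tau-labelled libraries and 6.51 to 16.9 in the 19. Neutrophil markers summed to at most 0.985 CPM in any library, with 0 of the 4 that were tested at an unadjusted p under 0.05. T and NK cell markers had 1 of 7 at that level, higher, with a median of 0.87. In naive Tau against WT 3 of the 7 were at that level, all higher, against 4.87% of all genes. They summed to 4.97, 2.64, 3.64, 2.15 and 2.98 CPM in the 5 libraries with the highest member values. In the 19 they summed to 1.87 to 4.55 CPM, and their part in the members' result was not tested.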

How the data were processed

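Per the labels' protocols, poly(A) libraries of the input fraction of both hippocampi took 100 ng of RNA, were read as 150 bp pairs and were planned at 40 M reads. The authors deposited raw counts per gene. The submitters' processing notes name Trimmomatic 0.39 and the build mm39. Aligner, counter, annotation and strand setting: not given in the sources used here. Genes that overlap or have close copies are therefore uncertain. Even numbers made up 54.7% of the counts of 1 to 10 but 50.0% of those over 1000, and totals exceed the reads planned; whether mates were counted apart was not tested.

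The counts went into edgeR 4.0.16 (R 4.3.3). Of 50559 genes 41519 had a count, and filterByExpr by group (10 counts, total 15) left 25382, all 33 members included. After TMM scaling, 1 quasi-likelihood model (robust, legacy off) with a mean per group over 36 libraries gave 17 two-sided contrasts, each adjusted by Benjamini-Hochberg at 0.05. Each SE was derived as the size of the log2 change divided by the square root of the test's F statistic. The script was tested on simulated data. No within-group pair of libraries (68) was identical. The members and lists were chosen with earlier results of these data known. Values per library are given for members called and for the 12 members of smallest unadjusted p in either of the comparisons naive APP/Tau with WT and Tau-labelled with other groups, and for a few others named after their values were seen. Alternatives tried: RLE scaling, no filter, a replicate block, library number or choroid plexus score as covariate, DESeq2 1.42.0, limma-voom (limma 3.58.1), only the groups compared, leaving out each library, and, chosen after seeing the data, a trended dispersion.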

Additional observations from a re-analysis of the deposited data

Results flagged for a closer look

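Of 198 sets of 4 to 6 libraries of 1 group examined for the 33 members, 9 held a library farther from its nearest neighbour than Dixon's 95% critical value allows; chance gives about 1 in 20. In Tau naive replicate 2 the highest of 4 values stood apart for 4 members: Tyrobp at 13.5 CPM, Lilrb4a at 1.71 CPM, Cst7 at 3.84 CPM and Cybb at 3.54 CPM. In Tau trained replicate 3 the highest of 4 stood apart for Lgals3, at 1.61 CPM. The lowest of 5 naive APP libraries stood apart for Msr1 in replicate 1 at 0.0574 CPM, for Cd52 in replicate 2 at 0.102 CPM and for Cybb in replicate 3 at 0.226 CPM, all on few counts. Hif1a in WT trained replicate 5, at 80.1 CPM, was the highest of 5. In the naive APP/Tau group of 6, where 2 libraries were high together, this measure, which looks at 1 library at a time, marked none.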

How the results depend on the processing

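In Tau-labelled against other groups 6 members passed, 11 with a trended dispersion, 0 with limma-voom and 18 with DESeq2, and 0 to 11 when 1 library was left out. Naive APP/Tau against WT gave 1, but 0 with a trended dispersion, limma-voom or only the groups compared, and 0 to 1 with a library left out. Trained Tau against WT gave 0, and 1 with only the groups compared. The cause was not tested. Over all genes the count in Tau-labelled against other groups was 212, but 124 with no filter and 568 with DESeq2. It was 17 in naive APP/Tau, but 11 with only the groups compared. It was 77 in trained Tau, but 244 with the library number and 202 with the choroid plexus score as covariate, 1351 with limma-voom, 555 with DESeq2 and 230 with only the groups compared. It was 14 in trained APP/Tau, but 24 with limma-voom, 82 with DESeq2 and 25 with only the groups compared. Direction was followed across settings only for the members called and the member of smallest p in each comparison, and none of these reversed. The replicate numbers do not pair the libraries: same-numbered libraries deviated together with a median correlation of -0.0137 over 106 pairs, and 7 of 36 were closest to their own number. With the replicate block 6 members passed in Tau-labelled against other groups, where Cd52 had an adjusted p of 0.0589 by edgeR, and 1 in naive APP/Tau. Members listed at a few counts are limited by depth.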
